A study of Mus musculus with 6 samples.

Results

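The mitochondrial respiratory chain was described here through 34 of its nuclear-encoded subunit genes, out of 18193 genes with a probe set of their own on the array. The genes were taken by symbol and cover 5 complexes: 15 genes of complex I, 4 of complex II, 5 of complex III, 6 of complex IV and 4 of complex V. Expression was measured with Affymetrix arrays in neutrophils from the blood of individual mice, isolated by negative magnetic selection, which were then held at 3% oxygen for 4 h. There were 3 phd3 null mice (phd3 is the prolyl hydroxylase gene now named Egln3) and 3 wild type mice, all on the C57 background. The hypoxia treatment was shared by all 6 samples, so genotypes were compared within hypoxia. The age and sex of the mice and the part of phd3 that was deleted are not given in the sources used here. Samples were numbered 1 to 3 in each genotype, and the same-numbered phd3 null and wild type samples share a code in their source labels and are called a pair below.

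The respiratory chain carries electrons from NADH and succinate to oxygen and uses the energy to pump protons across the inner mitochondrial membrane. Complex I oxidises NADH, complex II oxidises succinate as part of the tricarboxylic acid cycle, complex III passes electrons from ubiquinol to cytochrome c, complex IV reduces oxygen to water, and complex V is the ATP synthase driven by the proton gradient. Mature neutrophils are known for few mitochondria and for drawing most of their ATP from glycolysis. In many cells hypoxia-inducible factor (HIF), which prolyl hydroxylases mark for degradation when oxygen is present, lowers respiration and changes the composition of complex IV.

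Values are MAS5 signal intensities, an arbitrary brightness unit in which every array is scaled to a common trimmed mean, and each gene is represented by its brightest probe set. Differences are on the log2(signal + 16) scale, as phd3 null minus wild type unless stated otherwise, with the standard error (SE) of the limma fit. A gene was called at an adjusted p under 0.05 over the 10960 genes tested. Of the 34 genes, 33 were bright enough to be tested. The exception was Ndufa5, an accessory subunit of complex I, with signals of 5.2, 36.7 and 65 for arrays 1 to 3 of phd3 null and 31.5, 36.8 and 128.3 for those of wild type.

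Signal of the targeted gene Egln3 was 29.6 to 87.2 in phd3 null and 327 to 2088 in wild type samples, which do not overlap. Within wild type it was 2088 and 1733.9 in samples 1 and 2 and 327 in sample 3. The arrays also differed in other ways the genotype does not explain. Of 14 neutrophil markers 12 had a probe set, and the granule proteins S100a8 and S100a9 had signals of 11102.8 to 25479.7 and 11843.6 to 24367.2 on the 6 arrays. Markers of other cells were also bright, with 3537.6 to 11088.3 for the monocyte receptor gene Csf1r, and the share of each cell type was not estimated. Both arrays of replicate 3 stood apart in B cell and monocyte markers. The summed signal of 7 B cell markers was 5988 and 4938 in these arrays (phd3 null and wild type) and 389 to 1082 in the others, that of 7 monocyte markers was 5160 and 6058 against 17848 to 19163. In the summed signal of 12 neutrophil markers only phd3 null sample 3 lay outside the range of the others, at 26475. Wild type sample 3 had 44548 and the other 4 arrays 43636 to 59747. S100a8 and S100a9 make up most of this sum. Taken singly, 10 of the 12 lay below the mean of replicates 1 and 2 in replicate 3 of both genotypes. This compares with 28.9% of all genes tested, and 1 of the 12 lay above it in both, against 38.6%. No marker of these lists is listed at 0. Some lymphoid and red cell markers also differed between replicates. The replicate test described below called 2 of 4 tested T cell, 4 of 7 NK cell and 2 of 3 tested erythroid markers. It also called 5 of the 12 neutrophil markers, against 11.1% of all genes tested. Summed signal ran from 162.5 to 661.5 for 7 T cell markers, from 777.7 to 6893.8 for 4 erythroid markers, from 403.4 to 754.6 for 7 platelet markers and from 112.6 to 367.9 for 5 eosinophil markers. In such bulk samples, fewer cells of a type and less RNA per cell cannot be told apart.

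No respiratory chain gene was called between genotypes. Of the 33 tested genes, 19 had a lower and 14 a higher mean in phd3 null samples (57.6% lower, against 50.6% of all genes tested), and the median difference was -0.04, against -0.01 over all genes tested. The limma fit without a block called 0 of 33, and 0 of 10960 genes (0%), with an adjusted p of 0.9996 for every respiratory chain gene. At an unadjusted p under 0.05 there were also 0 of 33, against 1.74% of all genes. The groups of 3 overlapped for each of the 33 genes, whereas they did not overlap for 6.92% of all genes tested. With the pair number as a block, 2 genes were called over the whole array (0.0182%), Egln3 among them, and again 0 of 33. In that fit 1 of 33 had an unadjusted p under 0.05, against 5.62% of all genes. Markers of NK cells were lower in phd3 null in 7 of 7 cases (median -1.02, 0 called), with summed signals of 555.5 to 2728.3 and, for wild type, 1379.8 to 5847.9, and their part in the values of the respiratory chain genes was not tested. The SE of the 33 differences ran from 0.30 for Cox4i1 to 0.71 for Cox4i2. For 20 genes the 95% confidence interval of the difference lay within 1 log2 unit of 0, and for the other 13 a 2-fold difference in at least 1 direction is not outside the interval.

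**Figure D1:**
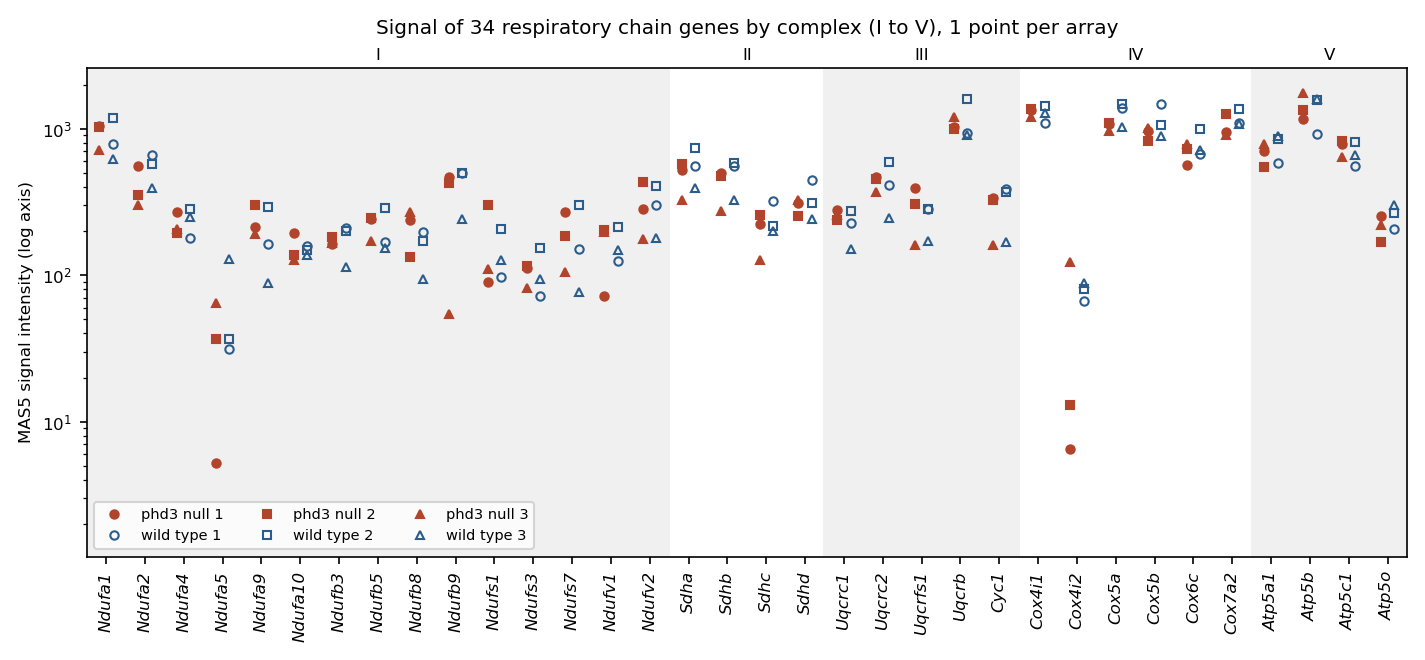
MAS5 signal (log axis) of the 34 genes, grouped by complex I to V, with 1 point per array; filled symbols are phd3 null and open symbols wild type samples, and the symbol shape gives the replicate. The 2 genotypes overlap for each tested gene, and the widest spread is that of Ndufa5 and Cox4i2.

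For 8 genes the difference had 1 sign in 3 of 3 pairs. Of the 33 tested, 7 (21.2%) were lower in phd3 null in 3 of 3 pairs, against 13% of all genes, and 1 (3.03%) was higher in 3 of 3, against 12.7%. The 7 were the complex I genes Ndufa2 and Ndufb9, the complex II genes Sdha and Sdhb, the complex III gene Cyc1, and the complex IV genes Cox5a and Cox7a2. The 1 higher was Ndufa9 of complex I. These counts rest on the brightest probe set. On another probe set bright enough to read, Ndufb9 was higher in phd3 null in pair 1 (496.9 against 363). Likewise Sdha was higher in pair 3 (152.1 against 116.9) and Cox5a in pair 1 (557.3 against 534.6). A further Cox5a probe set was lower in 3 of 3 pairs. Cox7a2 was higher in pairs 2 and 3 (875.2 against 689.9 and 594.3 against 578.8). Ndufa2, Sdhb and Cyc1 have only 1 probe set. None of the 8 passed with the block, where the lowest adjusted p of a respiratory chain gene was 0.873, for Ndufb9. Without replicate 3, 20 of 33 genes had a lower mean in phd3 null samples, with a median of -0.13 and 0 genes called.

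Complex I had no common direction. Of 14 tested genes 8 had a higher and 6 a lower mean in phd3 null samples, with a median difference of 0.02 and medians of 0.27, -0.21 and 0.06 in pairs 1 to 3. Ndufa2, an accessory subunit, had signals of 559.6, 354.1 and 302.2 for arrays 1 to 3 of phd3 null and 657.6, 569.5 and 394.2 for those of wild type. Each phd3 null sample lay below its partner, while phd3 null sample 1 lay above wild type sample 3, and the difference was -0.42 (SE 0.35). Its probe set is of a kind that can also read related transcripts. Ndufa9, a subunit at the joint between the matrix and membrane arms, had 214, 299.9 and 191.9 for phd3 null and 163.6, 292.3 and 88.7 for wild type arrays, a difference of 0.46 (SE 0.42). The pairs differed by 0.36, 0.04 and 0.99, so the third pair carried most of it. Ndufb8, a membrane arm subunit, had 239.6, 133.7 and 268.9 for phd3 null and 195.7, 170.1 and 94.5 for wild type arrays (difference 0.44, SE 0.39). Here too the third pair stood out, at 1.37, and without replicate 3 the difference was -0.02. A second, dimmer probe set of Ndufb8 gave 0.997, and the average of both gave 0.72.

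The core subunits of complex I, which hold the flavin and the iron-sulfur clusters, had differences smaller than their SE on their brightest probe sets. Ndufs1, the largest core subunit, had signals of 166.4 ± 116 for phd3 null and 142.8 ± 55.7 for wild type arrays (SD, n = 3), a difference of 0.08 (SE 0.47). Within both genotypes it was highest in sample 2, at 299.5 and 205. Ndufv1, which binds NADH and the flavin, had 156.9 ± 73.3 and 162 ± 46.8 (difference -0.12, SE 0.42). Its partner Ndufv2 had 296.9 ± 126 and 295.6 ± 112 (difference -0.01, SE 0.42). Ndufs3 differed by less than 0.01, at 102.5 ± 18.2 and 106.1 ± 41.9, and Ndufs7, which carries the last cluster before ubiquinone, by 0.17 (SE 0.50), at 187.5 ± 83 and 175.9 ± 113. For Ndufs1, Ndufs7 and Ndufv1 the 95% confidence interval reaches past a 2-fold difference. A second Ndufs7 probe set had 241.6, 172.3 and 165.2 against 86.7, 153.8 and 55.6, with no overlap and a difference of 0.94, and the average of both probe sets gave 0.56. Among the other accessory subunits the difference was also smaller than its SE for Ndufa1 (0.13, SE 0.35), Ndufa10 (0.02, SE 0.31), Ndufb3 (0.02, SE 0.33), Ndufb5 (0.13, SE 0.35) and Ndufa4 (-0.07, SE 0.32). Ndufa4 was named as a complex I subunit and is now placed in complex IV; counting it there left the complex I median at 0.02 and gave -0.20 for complex IV.

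Complex II was the complex in which every tested gene had a lower mean in phd3 null samples, 4 of 4, with a median difference of -0.23 and medians of -0.32, -0.28 and -0.25 in pairs 1 to 3. The differences were small against their errors, and 0 of 4 were called in either fit. Sdha, the flavoprotein that oxidises succinate, had signals of 523.3, 576.7 and 325.2 for phd3 null and 558.1, 739.1 and 393.7 for wild type arrays (difference -0.23, SE 0.36). Sdhb, the iron-sulfur subunit, had 494.2, 472.6 and 273.5 against 557.5, 583.2 and 325.3 (difference -0.23, SE 0.37). In both genes each phd3 null sample lay below its partner, and sample 3 was the lowest of its genotype. Sdhc, a membrane anchor, had 224, 256.7 and 125.9 against 318.5, 218.1 and 200.9 (difference -0.29, SE 0.36), and was higher in phd3 null in pair 2. The other anchor, Sdhd, had 312.3, 255.2 and 327.8 against 447.6, 310.6 and 242.8 (difference -0.12, SE 0.33), and was higher in phd3 null in pair 3. A second probe set of Sdhc gave a difference of 0.36, and when the probe sets of each gene were averaged Sdhc stood at 0.04. The median of complex II came to 0.00074 when phd3 null sample 3 was dropped and to -0.44 when its wild type partner was.

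The 250 bases before the start site are shown for the complex II genes listed in the promoter table used (RefSeq, GRCm38.p6). They were picked because the complex II genes shared a direction on their brightest probe sets, though none was called. Sdhc is not listed there. Capitals mark exact matches, on either strand, to GCGCA and GCGC with 1 base of any kind between them (the NRF1 motif, the core of the site of nuclear respiratory factor 1, a regulator of respiratory genes), CCGGAAG (an ETS site as bound by GABP), and ACGTG or GCGTG (the core of HIF sites). In Sdhd an NRF1 motif match overlaps a GCGTG match.
Sdha, chr13:74350241-74350490, minus strand: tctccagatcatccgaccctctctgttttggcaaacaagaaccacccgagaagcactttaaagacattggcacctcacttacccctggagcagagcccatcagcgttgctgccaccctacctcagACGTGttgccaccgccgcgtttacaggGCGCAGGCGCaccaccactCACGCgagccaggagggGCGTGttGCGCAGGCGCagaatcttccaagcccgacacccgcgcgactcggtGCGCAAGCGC
Sdhb, chr4:140961021-140961270, plus strand: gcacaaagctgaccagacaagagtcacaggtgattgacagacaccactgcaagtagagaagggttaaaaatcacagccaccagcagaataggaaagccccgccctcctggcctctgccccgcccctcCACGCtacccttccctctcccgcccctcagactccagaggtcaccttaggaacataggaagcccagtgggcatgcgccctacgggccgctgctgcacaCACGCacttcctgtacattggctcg
Sdhd, chr9:50603850-50604099, minus strand: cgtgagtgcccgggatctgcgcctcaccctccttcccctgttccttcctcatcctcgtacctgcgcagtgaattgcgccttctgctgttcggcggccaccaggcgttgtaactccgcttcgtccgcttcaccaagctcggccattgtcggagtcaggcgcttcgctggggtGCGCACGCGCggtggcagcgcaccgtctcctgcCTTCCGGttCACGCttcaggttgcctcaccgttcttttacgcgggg
The Sdha window held 3 matches to the NRF1 motif and Sdhd 1, Sdhb held 0, and each of the 3 held 2 matches to GCGTG. Of the 34 genes 23 were listed, with 25 start sites. The NRF1 motif was found in 5 of 25 windows (20%), belonging to Atp5c1, Ndufa5, Sdha and Sdhd, against 3.74% of 32851 windows of the same length over all genes. CCGGAAG was found in 8% against 6.91%, ACGTG in 16% against 16.6% and GCGTG in 44% against 28.2%. These are counts of letters and say nothing of binding.

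Complex III genes lay on both sides. Of 5 tested, 3 had a higher and 2 a lower mean in phd3 null samples, with a median of 0.12 and pair medians of 0.17, -0.20 and 0.40. The core proteins Uqcrc1 and Uqcrc2 differed by 0.27 (SE 0.32) and 0.12 (SE 0.37), with signals of 258.7 ± 19.8 against 218.1 ± 62.9 and 429.6 ± 53.3 against 416.4 ± 174 (SD, n = 3). Uqcrfs1, the Rieske iron-sulfur protein, had 286.7 ± 117 against 244.6 ± 62.7 (difference 0.16, SE 0.39), and Uqcrb, a ubiquinone-binding subunit, had 1071 ± 108 against 1141 ± 393 (difference -0.04, SE 0.34). A second, dimmer probe set of Uqcrb gave -0.47, and the average of both gave -0.26. Cyc1, the cytochrome that hands electrons to cytochrome c, had 334.7, 327.6 and 160.2 for phd3 null and 389, 369.6 and 167.3 for wild type arrays. Its pairs differed by -0.21, -0.17 and -0.06, much less than samples 1 and 2 differed from sample 3 in each genotype. Without wild type sample 3 the complex III median was -0.19.

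Complex IV had 5 of 6 genes with a lower mean in phd3 null samples, with a median difference of -0.23 and pair medians of -0.31, -0.40 and 0.02. None was called. Cox5a, a subunit on the matrix side, had signals of 1077.6, 1094 and 969.6 for phd3 null and 1388.1, 1477.3 and 1028.5 for wild type arrays (difference -0.29, SE 0.31). The groups overlapped only through wild type sample 3. Cox5b, another peripheral subunit, had 964.4, 820.2 and 1011.3 against 1479.8, 1061.1 and 886.2 (difference -0.26, SE 0.32). Its 4 brighter probe sets gave -0.26, -0.17, 0.03 and 0.40, so the sign depended on the probe set. Cox6c differed by -0.19 (SE 0.32), at 691 ± 114 against 794.6 ± 178, and Cox7a2, the widely expressed isoform of subunit VIIa, by -0.20 (SE 0.31), at 1037 ± 190 against 1184 ± 161 (SD, n = 3). Without replicate 3 the complex IV median was -0.37.

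**Figure D2:**
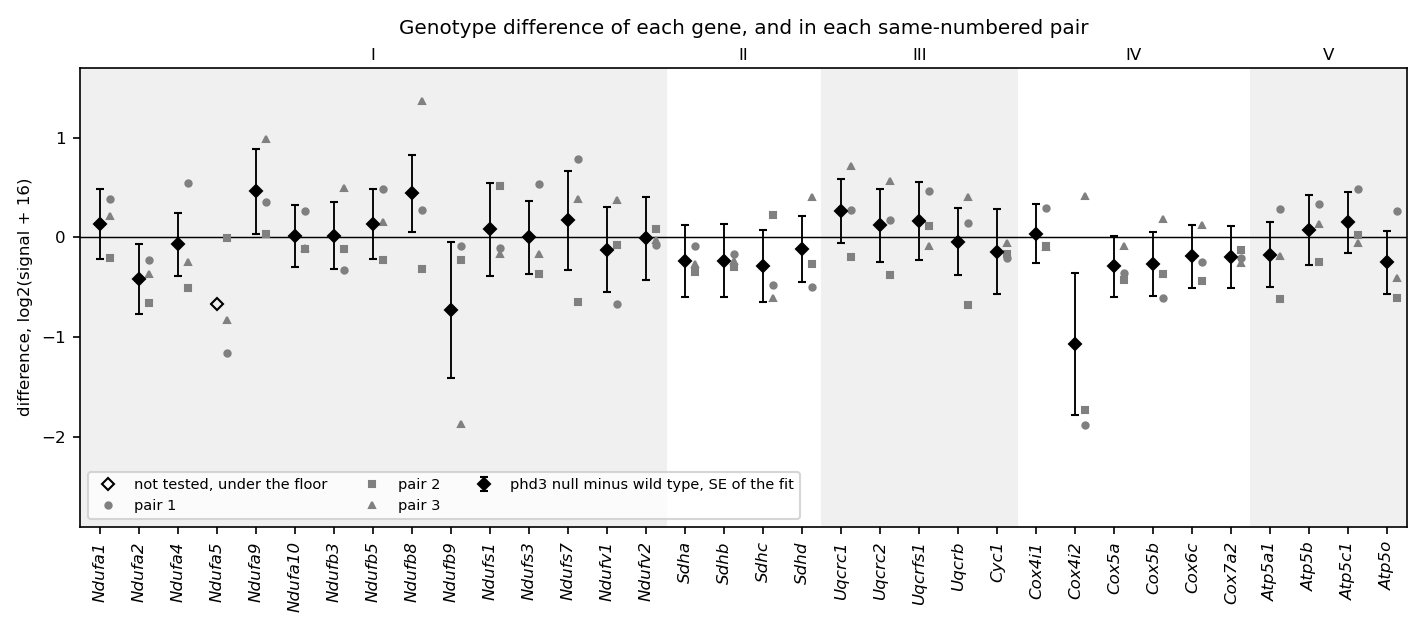
Genotype difference in log2(signal + 16) of each gene, grouped by complex I to V: black diamonds give phd3 null minus wild type with the SE of the limma fit, the open diamond is the untested Ndufa5, and grey symbols are the differences of the same-numbered pairs. The 4 complex II genes lie below 0, between -0.29 and -0.12, and the lowest black diamond is Cox4i2 at -1.07.

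Subunit 4 of complex IV has 2 isoforms, Cox4i1, found in most tissues, and Cox4i2, known from lung and described as induced by HIF in several cell types. Cox4i1 had signals of 1336.7, 1356.5 and 1203.5 for arrays 1 to 3 of phd3 null and 1087.9, 1437.1 and 1287.2 for those of wild type. This was the smallest SE among the 33 genes, and the difference of 0.04 (SE 0.30, 95% confidence interval -0.63 to 0.71) was within it. Cox4i2 had 6.5, 13 and 122.9 for phd3 null and 66.8, 80.1 and 88.5 for wild type arrays. Phd3 null samples 1 and 2 thus lay below all wild type samples and sample 3 above them all. The difference was -1.07 (SE 0.71, 95% confidence interval -2.67 to 0.53, adjusted p = 0.9996 in limma, unadjusted p = 0.167). The pairs differed by -1.88, -1.73 and 0.41. Its probe set is dim, against a median signal per array of 49.4 to 64.2, so the size rests on the pseudocount, at -1.75 with 1 and -0.50 with 64. The difference Cox4i2 minus Cox4i1 within an array was -5.91, -5.56 and -3.13 in phd3 null and -3.74, -3.92 and -3.64 in wild type samples. The genotypes differed in it by -1.10, with -1.79 at a pseudocount of 1, -0.54 at 64 and -1.91 without replicate 3. The pairs differed by -2.17, -1.65 and 0.51. An exact two-sided permutation test gave p = 0.4, but 3 against 3 cannot go below 0.1, so no value could have passed.

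**Figure D3:**
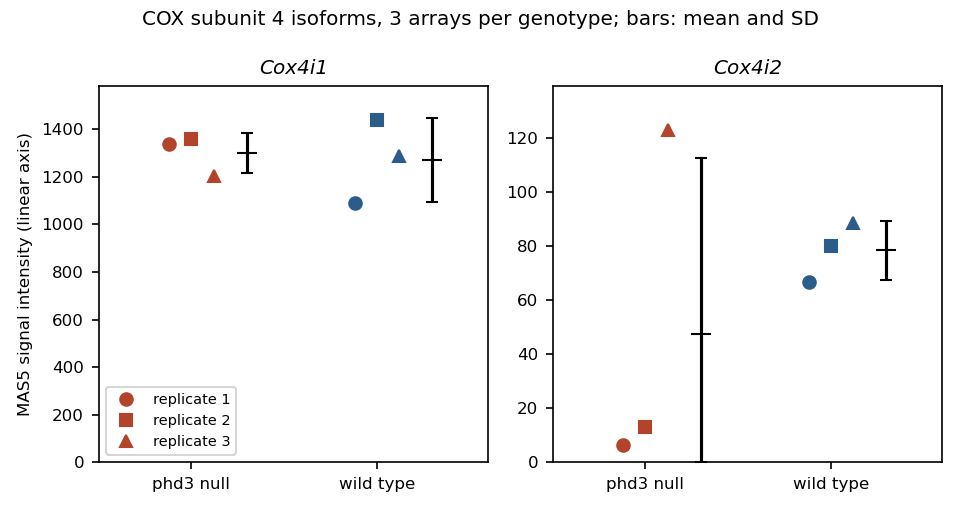
MAS5 signal (linear axes of different range) of Cox4i1 and Cox4i2 on each array, with mean and SD beside the points of each genotype; the lower bar of Cox4i2 in phd3 null samples stops at 0. Cox4i1 lies between 1087.9 and 1437.1 on all 6 arrays, while Cox4i2 is at 6.5 and 13 in phd3 null samples 1 and 2 and at 122.9 in sample 3.

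Complex V had 2 genes on each side and a median difference of -0.05 (pairs 0.31, -0.42 and -0.12). The median was -0.28 without array 1 of wild type, 0.05 without its array 2 and -0.18 when array 3 of phd3 null was dropped. Atp5a1 and Atp5b, the alpha and beta subunits of the catalytic head, had signals of 679.2 ± 122 against 772.6 ± 170 and 1414 ± 304 against 1364 ± 386 (SD, n = 3), differences of -0.17 (SE 0.32) and 0.07 (SE 0.35). Atp5c1, the rotating shaft, differed by 0.15 (SE 0.31), and Atp5o, the stalk protein that confers oligomycin sensitivity, by -0.25 (SE 0.31). A second, dimmer probe set gave the other sign for Atp5a1 (0.28), Atp5c1 (-0.03) and Atp5o (0.23), while Atp5b has only 1. With quantile normalization the complex V median was 0.02.

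More genes were called by replicate number than by genotype. In a limma F test of the replicate terms beside genotype, 1218 of 10960 genes were called (11.1%), and of the 33 respiratory chain genes 2 were called (6.06%), a share below that of all genes. Both were lower in replicate 3, against 7.18% of all genes called and lower there, and 0 of 33 were called and higher, against 3.93%. The 2 were Ndufb9, an accessory subunit of the membrane arm of complex I (adjusted p = 0.00441), and Cyc1 (adjusted p = 0.0426). Ndufb9 had signals of 468.2, 426 and 54.2 for phd3 null and 499.8, 499.8 and 240.9 for wild type arrays. Sample 3 was lowest in each genotype, by -2.72 and -1.01 relative to the mean of samples 1 and 2, and a second probe set of the gene gave a mean of -1.66 against -1.86. The wider gap in phd3 null is also what its genotype difference rests on, -0.73 (SE 0.69) with all arrays and -0.16 without replicate 3. Cyc1 was lower in sample 3 by -0.98 in phd3 null and -1.11 in wild type. Neither gene was called when limma's variance prior had no trend (adjusted p = 0.205 and 0.255, with 0 of 10960 genes called). The same held when probe sets were averaged (0.156 and 0.0518, with 556 genes called), and Cyc1 was not called with quantile normalization (0.0592). Averages took in all probe sets of a gene, also those too dim to be tested. Ndufb9 has such a probe set, with signals of 4.4 to 10.7, while Cyc1 has only 1 probe set. Without phd3 null sample 3 neither was called (0.168 and 0.138), and Cyc1 was also lost without array 1 of phd3 null (0.0737) or without array 1 (0.0861) or 3 (0.208) of wild type.

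The complexes differed in how they stood in replicate 3. Relative to the mean of replicates 1 and 2, the median over genes was -0.45 for complex I, -0.66 for complex II, -0.64 for complex III, -0.11 for complex IV and 0.27 for complex V, against 0.10 for all genes tested. In phd3 null and wild type samples taken separately the medians were -0.44 and -0.62 for complex I, -0.76 and -0.64 for complex II, -0.31 and -0.67 for complex III, 0.01 and -0.19 for complex IV, and 0.21 and 0.34 for complex V. Sample 3 lay below the mean of samples 1 and 2 in both genotypes for 17 of 23 tested genes of complexes I to III and for 3 of 10 of complexes IV and V, against 28.9% of all genes. It lay above it in both genotypes for 0 of 23 and 4 of 10, against 38.6%. The 4 were Cox4i2, Atp5a1, Atp5b and Atp5o. With quantile normalization the medians were -0.44, -0.57, -0.48, 0.15 and 0.43 for complexes I to V, so that of complex IV turned sign. Where a gene had several probe sets bright enough to read, the sign of the replicate 3 difference was not the same in all of them for 7 of 18 genes (Atp5a1, Atp5c1, Cox6c, Ndufb5, Ndufb8, Ndufv1 and Sdha). This order of complexes is a description of 2 arrays against 4 and was not tested.

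**Figure D4:**
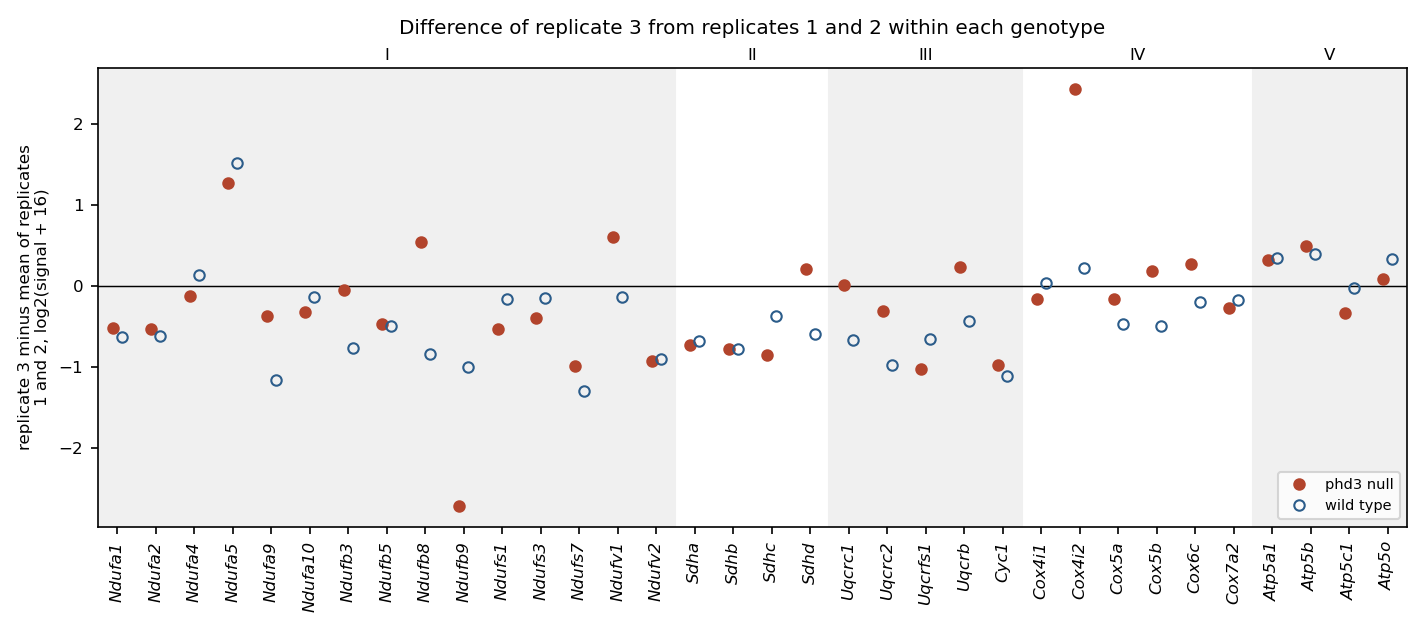
Replicate 3 minus the mean of replicates 1 and 2 in log2(signal + 16), for each gene of complexes I to V, in phd3 null (filled) and wild type samples (open). Ndufb9 reaches -2.72 in phd3 null samples, Cyc1 is near -1 in both genotypes, and Atp5a1, Atp5b and Atp5o lie above 0 in both.

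Some cell type markers and 4 of 8 tested hypoxia-linked genes were also called by the replicate test, against 11.1% of all genes tested. As replicate 3 minus the mean of replicates 1 and 2, the median was 2.68 over 7 B cell markers, 0.96 over 3 tested erythroid markers, -0.999 over 7 monocyte markers and -0.51 over 12 neutrophil markers. Bnip3, a HIF target that directs removal of mitochondria, differed by -4.16 in replicate 3, Pdk1, which restrains pyruvate entry into the mitochondria, by -2.81, and Higd1a, a HIF-induced complex IV regulator, by -2.31, each called by the F test (adjusted p = 1.29e-07, 1.09e-05 and 5.31e-05). The fourth was Mxi1, at -1.09 (adjusted p = 0.0261), and the 4 not called were Ndufa4l2 at 0.35, Lonp1 at 0.16, Iscu at -0.01 and Higd2a at -0.19. Their part in the values of the respiratory chain genes was not tested.

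Of the other genes of the pathway, 0 were called between genotypes in any list in either limma fit. Among the remaining nuclear-encoded subunits 8 of 18 tested complex I genes were higher and 10 lower in phd3 null samples (median -0.03), 2 and 2 of complex III (-0.04), 3 and 3 of complex IV (-0.07), and 6 and 5 of complex V (0.05). The groups did not overlap for 1 of the 18 complex I genes and 0 of the others, against 6.92% of all genes tested. That gene was Ndufb6, with 267.2, 244 and 131 for phd3 null and 301.1, 420.6 and 277.7 for wild type arrays (difference -0.64, SE 0.36). In replicate 3 these further subunits had medians of -0.52 for complex I and -0.42 for complex III. Those of complexes IV and V were 0.18 and -0.40. For complex V this median was below 0, while that of the 4 genes described above was 0.27. Of those 4, Atp5c1 lay below 0 in both genotypes and the other 3 above it. The 13 mitochondrially encoded subunits had no probe set under these names in the annotation used and are not analysed here. Assembly factors were higher in 14 and lower in 16 of 30 tested (median -0.10), and the smallest p was that of Uqcc2, a complex III assembly factor (difference -0.78, SE 0.36).

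Cytochrome c itself, encoded by Cycs, had signals of 784.8, 771.9 and 1427.8 for phd3 null and 1504.5, 1507.2 and 1381.1 for wild type arrays (difference -0.61, SE 0.34, adjusted p = 0.9996). As for Cox4i2, phd3 null samples 1 and 2 lay below all wild type samples and sample 3 did not. Of 8 tested electron carrier and coenzyme Q genes 3 were higher and 5 lower. Of 17 tricarboxylic acid cycle genes 6 were higher and 11 lower (median -0.17). The smallest p of the list was that of Suclg1, which was higher in phd3 null samples. It had 102.7, 128.8 and 120.3 against 18.5, 135.6 and 7.3 (difference 1.42, SE 0.66), with overlapping groups. The groups did not overlap for 3 of the 17, Mdh2 and Idh3a among them, against 6.92% of all genes tested. Malate dehydrogenase Mdh2 had 679.8, 793.3 and 636.9 against 994.1, 901 and 1094.6 (difference -0.49, SE 0.29). The isocitrate dehydrogenase subunit Idh3a differed by -0.56 (SE 0.33). Among genes that make or mark mitochondria, 4 of 12 biogenesis genes were higher and 8 lower, and 10 of 16 general mitochondrial proteins were higher and 6 lower. Esrra, a nuclear receptor that drives respiratory genes, had 185.9, 191.4 and 150.8 against 91.7, 104.1 and 88.3 (difference 0.79, SE 0.30, adjusted p = 0.9996, unadjusted p = 0.0272), with no overlap between genotypes.

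Genes known to link hypoxia to respiration were higher in phd3 null samples in 7 of 8 tested cases, against 5411 of 10960 genes tested. Their median was 0.42, with pair medians of 0.17, 0.65 and 0.21, and 0 were called. The groups did not overlap for 2 of the 8, Ndufa4l2 and Iscu, against 6.92% of all genes tested. Ndufa4l2, a HIF-induced paralog of Ndufa4, had signals of 79.2, 81.2 and 108 for phd3 null and 69.8, 10.2 and 43.6 for wild type arrays, which do not overlap (difference 1.03, SE 0.54). Lonp1, a mitochondrial protease that HIF induces and that degrades the Cox4i1 protein, had 292.3, 160 and 183.5 against 101.1, 117.6 and 167 (difference 0.64, SE 0.35). Mxi1 differed by 0.57 (SE 0.46), Pdk1 by 0.46 (SE 0.92), Bnip3 by 0.37 (SE 1.31), the iron-sulfur scaffold Iscu by 0.30 (SE 0.29), Higd2a by 0.11 (SE 0.31) and Higd1a by -0.08 (SE 0.78). Cox4i2, the other gene of this kind among the 34, lay on the other side of 0.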

How the data were processed

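The authors deposited MAS5 signal intensities on a linear scale, 1 value per probe set and array, per the submitters' processing notes, with no MAS5 version stated there. All arrays share 1 trimmed mean under this method, and detection calls were not used, so low signals are noisy. Precision is limited by how many arrays there are. Since each sample is 1 mouse per the labels, p-values measure the spread between mice and their handling.

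Of 45101 probe sets, 64 controls were left out, 34945 had 1 gene symbol, 932 several and 9160 none in the annotation table. All 34 genes matched the GRCm38.p6 gene table by gene ID, with 0 symbols changed; they had 65 probe sets, 57 of them at or above the floor. Each gene was its probe set of highest mean log2(signal + 16), and genes with a mean under 5.90, the median of non-control probe sets, were not tested. Of 18 genes with several probe sets above that floor, 10 had genotype differences of both signs (Atp5a1, Atp5c1, Atp5o, Cox5b, Cox7a2, Ndufb5, Ndufv1, Ndufv2, Sdhc and Uqcrc2). The chosen probe sets of Ndufa2, Sdhc, Cox5b and Atp5c1 can also read related transcripts.

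Fits used limma 3.58.1 in R 4.3.3 (lmFit, eBayes with a trend, two-sided, Benjamini-Hochberg over 10960 genes) and were checked on simulated data. Same-numbered arrays deviated together across genes (correlations 0.292, 0.151 and 0.474, against -0.363 to 0.177 for unmatched arrays, where phd3 null 2 with wild type 1 had the 0.177, above its own partner), and they share a code in the labels, so same-numbered arrays were treated as pairs. The 34 genes, the related lists and the marker lists were chosen with earlier results of these data known. The text names all 34 genes, Egln3, up to 4 genes of smallest p from each related list and all tested hypoxia-linked genes; genes singled out in replicate 3 or by their probe sets were chosen after their values were seen. Alternatives were other pseudocounts, quantile normalization, averaged probe sets, no filter, no trend, the block and arrays left out.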

Additional observations from a re-analysis of the deposited data

How the results depend on the processing

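Under every alternative run, 0 respiratory chain genes were called between genotypes, including the replicate block without both arrays of replicate 3, which was chosen after seeing the data and called 46 genes over the array. The replicate block called 2 genes, and leaving out arrays 0 to 1. Of 462 values of single genes under alternatives, 416 kept their direction, 46 turned and 0 passed the threshold; 11 of 33 genes never turned. Those that turned with all arrays were Ndufs3 (0.0051 with pseudocount 1), Ndufa10 (-0.013) and Uqcrb (0.031) with quantile normalization, and Ndufa10 (-0.064), Ndufb5 (-0.036), Ndufv2 (0.13) and Sdhc (0.035) with averaged probe sets. Averaging also moved, by over 1.5 times with no turn, Ndufb8 (0.72), Ndufs7 (0.56), Ndufb9 (-0.23), Ndufv1 (-0.016), Sdhd (-0.25), Uqcrc2 (0.027), Uqcrb (-0.26), Cox5b (-0.17), Cox7a2 (-0.052), Atp5a1 (-0.30), Atp5c1 (0.063) and Atp5o (-0.0099). The averages include probe sets under the floor, which gave -1.01 for Atp5a1, -0.14 for Ndufa10 and -0.15 and -0.88 for Cox5b. Such probe sets gave 0.26 for Ndufb9 and -0.09 for Sdha. Above the floor, the probe sets of Atp5a1 gave -0.17 and 0.28, and those of Ndufb9 -0.73 and -0.23. Those of Cox5b gave -0.26, -0.17, 0.03 and 0.40, so its average without a turn rests in part on probe sets under the floor.

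When arrays were left out, differences that turned ran from -0.081 to 0.38 for Ndufa1, -0.25 to 0.061 for Ndufa4, -0.15 to 0.12 for Ndufa10, -0.24 to 0.16 for Ndufb3, -0.033 to 0.40 for Ndufb5, -0.021 to 0.72 for Ndufb8, -1.21 to 0.18 for Ndufb9, -0.40 to 0.39 for Ndufs1, -0.21 to 0.26 for Ndufs3, -0.26 to 0.62 for Ndufs7, -0.37 to 0.31 for Ndufv1, -0.31 to 0.30 for Ndufv2, -0.46 to 0.0083 for Sdha, -0.49 to 0.029 for Sdhb, -0.38 to 0.11 for Sdhd, -0.20 to 0.41 for Uqcrc2, -0.10 to 0.51 for Uqcrfs1, -0.27 to 0.22 for Uqcrb, -0.51 to 0.18 for Cyc1, -0.068 to 0.13 for Cox4i1 and -0.19 to 0.21 for Atp5b. The complex medians ran from -0.07 to 0.25 for complex I, -0.44 to 0.00074 for II, -0.19 to 0.27 for III, -0.37 to -0.14 for IV and -0.28 to 0.05 for V.

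In the replicate test, averaged probe sets called 556 genes and 0 of the 33, no trend called 0 and 0, and quantile normalization called 1 of the 33. Leaving out arrays gave 0 to 3 of the 33, and moved their median difference in replicate 3 between -0.49 and -0.25. The cause was not tested. Low signals limit Cox4i2 and Ndufa5 most.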
